A study of Mus musculus with 5 samples.

Results

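The contacts of *Rnf32* within the *Shh* region were examined in 5C data from E11.5 CD1 mouse embryos. *Rnf32*, which encodes a RING finger protein, lies inside the regulatory domain of *Shh*, between the gene desert and *Lmbr1*. Its contacts were taken as all fragment pairs of the *Shh* region in which exactly 1 of the 2 HindIII fragments overlaps the gene (chr5:29522532-29552064, mm9, plus strand, ENSMUSG00000029130.6). This gave 1552 of the 31328 fragment pairs of the *Shh* region and of the 33306 pairs in all. A further 20 pairs join *Rnf32* fragments to each other and were kept apart. The tissues were whole fore- and hindlimb buds (2 biological replicates), the body (1 library) and the head, labelled neural and cranio-facial (1 sample with 2 technical libraries, whose reads were summed). The labels name no treatment or mutant, and give the body as multiple tissues. Whole limb buds hold few cells in which *Shh* is active, and in bulk tissue a contact made in fewer cells cannot be told apart from a contact made less often in every cell.

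In 5C, chromatin is cross-linked, cut and religated, and a pool of forward and reverse primers reads out which restriction fragments were joined. A forward primer is read only with a reverse primer, so forward-forward and reverse-reverse pairs are never seen. *Shh* encodes a morphogen that patterns the limb, and its limb expression depends on the ZRS, an enhancer in an intron of *Lmbr1* at the far end of the desert. Other enhancers of *Shh* lie in the desert and act in the brain and other tissues. Genes inside such a domain share its chromatin environment with the enhancers although they need not be their targets.

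Only part of *Rnf32* was covered by primers. Of the 354 fragments of the *Shh* region (176 forward and 178 reverse), 9 lie in the gene, 4 with a forward primer (fragments 386, 388, 391 and 394) and 5 with a reverse primer (fragments 385, 387, 390, 393 and 395). They run from 29527218 to 29545876 and cover 16627 bases, or 56.3% of the gene. The 4686 bases at the 5′ end, which hold the start of the gene, and the 6188 bases at the 3′ end carry no primer, so the values below describe the body of the gene and not its promoter. Fragment 387 overlaps annotated exons by 143 bases and fragment 390 by 1114 bases, and the other 7 fragments are intronic. The 3′ end of *Lmbr1* (minus strand) lies 4289 bases beyond the 3′ end of *Rnf32*, and *Shh* lies 729 kb away on the other side.

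The shortest *Rnf32* fragments, 388 (186 bases, 46.8% G and C) and 386 (248 bases, 43.5%), are printed whole because the reads of the first depended strongly on the library, and because both carry named contacts. Both are intronic. The fragments of *Shh* and the partner fragments 168 and 463, on which results below turn, are given by 40 bases around the HindIII site at their lower coordinate. Sequences are from the NCBIM37 plus strand, with the bases of the HindIII site in capitals.
fragment 388, chr5:29530052-29530237: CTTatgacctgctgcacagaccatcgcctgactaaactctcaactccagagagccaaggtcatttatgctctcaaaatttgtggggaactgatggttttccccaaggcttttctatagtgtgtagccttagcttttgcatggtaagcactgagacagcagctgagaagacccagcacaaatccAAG
fragment 386, chr5:29527531-29527778: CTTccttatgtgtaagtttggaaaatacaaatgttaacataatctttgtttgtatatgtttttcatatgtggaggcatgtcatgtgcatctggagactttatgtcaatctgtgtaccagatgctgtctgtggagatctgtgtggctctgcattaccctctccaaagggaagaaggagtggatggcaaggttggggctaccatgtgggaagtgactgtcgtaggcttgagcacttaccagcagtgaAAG
fragment 145 (*Shh*, 3′ part), chr5:28782615-28782654: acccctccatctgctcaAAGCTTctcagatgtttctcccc
fragment 147 (*Shh*, 5′ part), chr5:28789527-28789566: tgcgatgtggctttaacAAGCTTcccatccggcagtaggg
fragment 168 (desert near *Shh*), chr5:28870588-28870627: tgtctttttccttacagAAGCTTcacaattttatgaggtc
fragment 463 (beyond *Lmbr1*), chr5:29713073-29713112: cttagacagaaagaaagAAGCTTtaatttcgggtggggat
All 354 fragments begin at a HindIII site of this sequence and 353 end at one. The 9 *Rnf32* fragments were 186 to 4792 bases long, against a median of 2427 bases over all fragments, and held 39.9% to 46.8% G and C, against a median of 43.7%.

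The limb replicates gave 19450 and 50518 reads of *Rnf32* contacts, the body 20153 and the head 63064. Total depth was 675954 and 1714491 reads for limb, 1056071 for body, and 1048682 and 931061 for the libraries of the head. Per 1000 reads the contacts took 28.8 and 29.5 in limb, 31.9 in head (32.2 and 31.4 in its libraries) and 19.1 in body. The body value stood below the other 3 samples. Pairs within the gene moved the other way, with 13.7 reads per 1000 in body against 8.68 and 8.78 in limb and 9.03 in head. Body reads as a whole were shorter in range. Of all *Shh* region reads, 62.3% joined fragments under 28 kb apart in body, against 37.4% and 41.0% in limb and 37.5% in head. The part of this in the lower body value was not tested. At 84 kb or more lay 67.2%, 68.2%, 60.4% and 69.1% of *Rnf32* contact reads (limb replicate 1, limb replicate 2, body, head). For all *Shh* region reads it was 50.8%, 47.2%, 27.3% and 51.1%. The 2 sets are not alike in the separations their pairs offer. The first leaves out the short pairs within *Rnf32* by definition, while the second keeps the short pairs of every fragment. Part of the gap therefore follows from how the sets were drawn. In each sample 22.9% to 35.1% of the 1552 pairs had no read, and 324 pairs were read in all 5 libraries and 82 in none.

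The fragments of *Rnf32* were not read alike. Fragment 394, the longest, took 4.50 and 5.05 reads per 1000 for the limb replicates, 4.20 for body and 4.38 for head. Fragment 391 took 4.50, 4.74, 2.51 and 5.34. Fragment 388 took 1.58 in the first limb replicate but 0.537 in the second, 0.201 in body and 0.797 in head, whose libraries gave 0.462 and 1.17. Its replicates differed 2.94 times, more than those of any other *Rnf32* fragment. A single pair, of fragment 388 with fragment 407 in *Lmbr1* 38.6 kb away, held 538 of its 1067 reads in limb replicate 1, 179 of 921 in limb replicate 2, 18 of 212 in body and 241 of 1577 in head. This pair was singled out after its values were seen. Without it the replicates of fragment 388 still differed 1.81 times. Over the other 8 fragments the limb replicates lay between 0.817 and 1.14 times each other in their share of all reads, pairs within the gene included. In reads with fragments outside the gene, body was below both limb replicates for each of the 9 fragments. With pairs within the gene included, the share in body was below the limb mean for 5 of the 9.

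**Figure D1:**
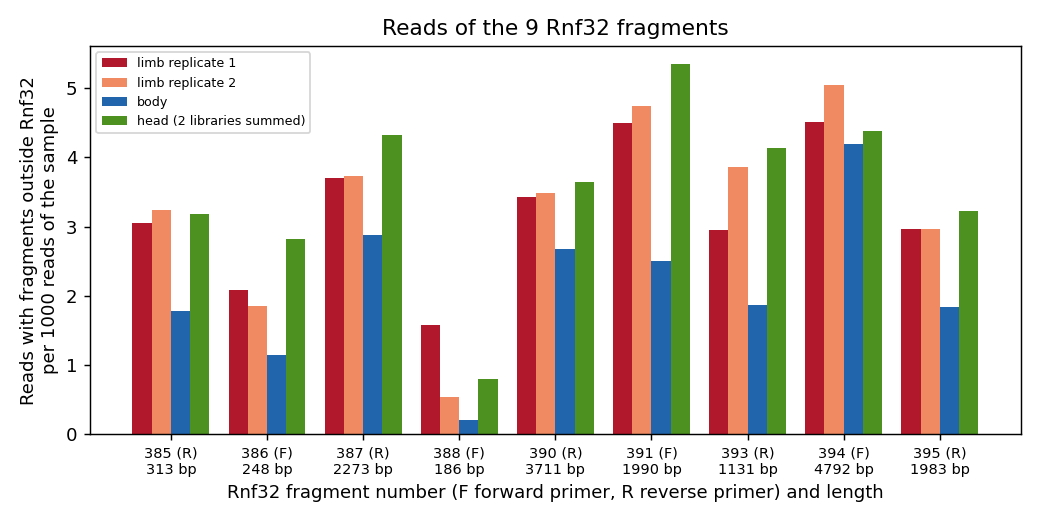
Reads of each *Rnf32* fragment with fragments outside the gene, per 1000 reads of the sample, in limb replicates 1 and 2, body and head. Fragment 388 is the lowest in every sample with the largest relative gap between the limb replicates (1.58 and 0.537), and body has the lowest bar for each fragment.

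To separate contacts from the fall of reads with distance, each interaction frequency (reads per 1000 reads of the sample) was compared with the mean of all *Shh* region pairs in the same 28-kb bin of separation. Observed over expected is the sum over a block of pairs divided by the sum of its expected values, so a value of 1 is the average of the region at that distance. The region was divided at annotated genes, and the desert into 5 equal parts counted from *Shh* to *Rnf32*. Intervals are Wilson 95% intervals of the read number and cover counting error only, since PCR reads without molecular identifiers are not independent molecules.

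*Rnf32* was joined to *Shh* more often than the average at that distance in all samples. The 9 pairs held 109 and 205 reads for the limb replicates, 101 for body and 242 for head. In the same order this was 0.0179, 0.0133, 0.0106 and 0.0136 reads per 1000 per pair. Observed over expected was 2.18 (1.80 to 2.63) and 1.48 (1.29 to 1.70) for the limb replicates, 1.97 (1.62 to 2.39) for body and 1.32 (1.16 to 1.50) for head. Body lay between the limb replicates (1.83 ± 0.492, SD, n = 2), and head lay below both. Its 2 libraries gave 1.45 and 1.19. Of the 9 pairs, 1, 0, 2 and 0 had no read, against 55.7%, 47.5%, 37.1% and 47.5% of other pairs of the region at the same separations (limb replicate 1, limb replicate 2, body, head).

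The enrichment with *Shh* was carried by some of the 9 pairs. The most-read was 394 with 145 in both limb replicates (34 and 87 reads, with 45 in body and 44 in head). In body and in head it was 391 with 145, with 10, 54, 46 and 76 reads, and all 76 head reads came from 1 of its 2 libraries. Likewise, 386 with 145 had 23 and 18 reads in limb, none in body, and 70 in head, all from the other library. The 5 pairs with fragment 147, at the 5′ end of *Shh*, were read less, with 3 to 15 and 2 to 17 reads each in the limb replicates, 0 to 4 in body and 4 to 14 in head. The most-read pair held 31.2%, 42.4%, 45.5% and 31.4% of the *Rnf32* reads with *Shh*. Without that pair observed over expected was 1.32 for limb, 1.21 for body and 1.02 for head. When only read pairs were averaged, it was 0.962 for limb, 1.62 for body and 0.717 for head, and the median over pairs was 1.26 for limb, 0.176 for body and 0.637 for head. That *Rnf32* stood above the average with *Shh* therefore rests in limb and head on counting unread pairs as 0. In body and head the median over pairs was below 1. Expected values are means, however, and 37.1% and 47.5% of other pairs at these separations were unread there. A value of 1 is thus not the reference for a median, which cannot decide the question.

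**Figure D2:**
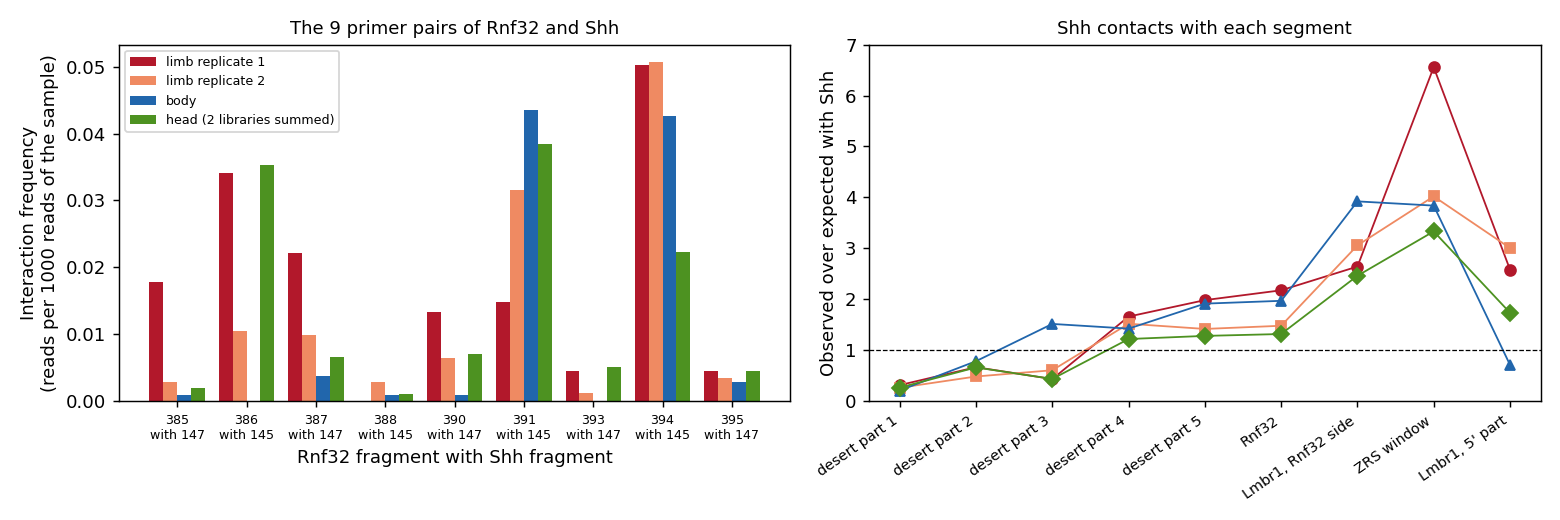
Left, interaction frequency (reads per 1000 reads of the sample) of each of the 9 fragment pairs of *Rnf32* and *Shh*. The pairs of 391 and 394 with 145 have the highest bars in limb replicate 2 and body. The right panel uses the same colours. Right, observed over expected of *Shh* with each segment, which climbs from the desert beside *Shh* towards *Lmbr1* and is highest at the ZRS window in both limb replicates (6.56 and 4.02) and head (3.33).

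Seen from *Shh*, *Rnf32* stood on a rise of contacts from the desert towards *Lmbr1*. With the last part of the desert, observed over expected of *Shh* was 1.98 and 1.42 for the limb replicates, 1.91 for body and 1.28 for head. With *Rnf32* it was 2.18, 1.48, 1.97 and 1.32. With the part of *Lmbr1* on the *Rnf32* side it was 2.64, 3.06, 3.92 and 2.46, and with the 28-kb window that holds the ZRS 6.56, 4.02, 3.84 and 3.33. The ZRS window was placed from the position of the ZRS on the map of the study. Ranked by these values, *Rnf32* stood 4, 5, 3 and 4 among 12 segments. Its contact with *Shh* was 1.05 times that of the neighbouring desert (geometric mean, higher in 4 of 4 samples) and the ZRS window was 2.52 times *Rnf32* (higher in 4 of 4). An exact two-sided sign-flip permutation test over the 4 samples cannot go below p = 0.125, and it gave 0.125 for both. It gave the same for each of 7 such comparisons made here, adjusted p = 0.125. All 4 samples went the same way in each, which fixes this value, so the test decides none of them. The samples are also of different tissues and not replicates of a single condition.

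Relative to distance, the contacts of *Rnf32* with the desert were highest in the part beside *Shh* and lowest in the part beside *Rnf32*. With the desert part beside *Shh* (98 pairs), interaction frequency per pair was 0.0124 and 0.0165 for the limb replicates, 0.0103 for body and 0.0176 for head. Observed over expected was 1.48, 1.89, 1.87 and 1.82. All 4 samples were thus above the average there. This was shared with the neighbours of *Rnf32*. The same desert part stood at 1.58, 1.84, 2.22 and 2.04 with the last desert part. With *Lmbr1* on the *Rnf32* side it stood at 2.15, 2.17, 2.62 and 1.95. *Rnf32* with the second part stood at 1.07, 1.08, 1.11 and 1.35. In the third it was 0.643, 0.870, 0.991 and 0.792, and in the fourth 0.894, 0.880, 0.973 and 1.12. The middle of the desert thus lay near or below the average, with head alone above it in the fourth part. Under the alternatives tried the third part ranged from 0.438 to 1.20 in limb, 0.683 to 1.02 in body and 0.534 to 1.30 in head. Its place below the average thus depends on the processing. The part next to *Rnf32* (108 pairs, 0.0421 to 0.0519 reads per 1000 per pair) gave 0.578, 0.502, 0.387 and 0.597. The part beside *Shh* was 3.46 times the part beside *Rnf32* on this scale, in the same direction in 4 of 4 samples (exact permutation p = 0.125). Such a rise with distance was not particular to *Rnf32*. *Shh* stood at 0.315, 0.263, 0.209 and 0.267 with the part beside it and at 1.98, 1.42, 1.91 and 1.28 with the last part. The ZRS window rose from 1.19, 1.30, 0.918 and 1.13 with the last part to 2.50, 2.39, 2.28 and 2.09 with the part beside *Shh*. Each part was compared with the average at its own separations, so the 3.46 sets unlike references side by side. *Rnf32* with the interval from *Rbm33* to *Shh* (23 pairs) was also above 1, at 1.29, 1.79, 1.89 and 1.41. With the median over pairs the interval fell below 1 in each tissue (0.585 for limb, 0.944 for body, 0.392 for head), and the part beside *Shh* in body (0.872).

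The nearest neighbours on the *Lmbr1* side were read less often than the region's average at the same distance. *Lmbr1* up to the ZRS window (103 pairs, median separation 45.2 kb) had the highest interaction frequency of all segments, with 0.0590, 0.0625, 0.0428 and 0.0646 reads per 1000 per pair. Observed over expected was nevertheless 0.575, 0.588, 0.351 and 0.646. In the ZRS window (41 pairs) it was 0.520 (0.488 to 0.555) and 0.672 (0.648 to 0.696) for the limb replicates, 0.641 (0.597 to 0.687) for body and 0.536 (0.517 to 0.556) for head. The limb replicates enclosed both other tissues. Capping each pair at the 99th percentile of its separation bin took the ZRS window to 1.17 in limb and 1.08 in head, but to 0.658 in body, so its place below the average holds only without a cap in limb and head. The 5′ part of *Lmbr1* (13 pairs) had 0.457, 0.512, 0.359 and 0.561, with 3 to 8 of its 13 pairs unread, and rose to 1.85 in head with balanced primer totals. The part of *Lmbr1* on the *Rnf32* side and the last desert part remained below 1 under every alternative tried. Low values between adjacent segments were not particular to *Rnf32*. *Shh* with the desert part beside it stood at 0.315, 0.263, 0.209 and 0.267. The ZRS window with *Lmbr1* on the *Rnf32* side stood at 0.601, 0.672, 0.376 and 0.648. The 5′ part of *Lmbr1* with the domain beyond it went the other way except in body, at 7.77, 6.56, 0.540 and 7.54. Between *Rnf32* and the ZRS window, the most-read pairs were 387 with 439 in limb replicate 1 (46 reads), 395 with 437 in limb replicate 2 (170), 387 with 441 in body (69) and 391 with 444 in head (237). No pair led in more than 1 sample.

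The outer domains differed. *Rnf32* with the domain on the *Rbm33* side, which holds *Insig1*, *En2*, *Cnpy1* and *Rbm33* (391 pairs, median separation 965 kb), had 0.977, 0.945, 0.836 and 0.906. The domain beyond *Lmbr1*, which holds *Nom1*, *Mnx1* and *Ube3c* (328 pairs, median separation 316 kb), had 0.484, 0.548, 0.447 and 0.536. Capping moved the first above 1 in limb (1.11) and head (1.08), and the second stayed below 1 under every alternative. Of the 328 pairs, 42.1%, 36.0%, 30.5% and 41.8% were unread, against 36.1%, 28.7%, 21.0% and 30.2% of other pairs at the same separations. The neighbours of *Rnf32* were also low with the domain beyond *Lmbr1*. There the last desert part stood at 0.402, 0.471, 0.499 and 0.462, and *Lmbr1* on the *Rnf32* side at 0.431, 0.529, 0.439 and 0.521.

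**Figure D3:**
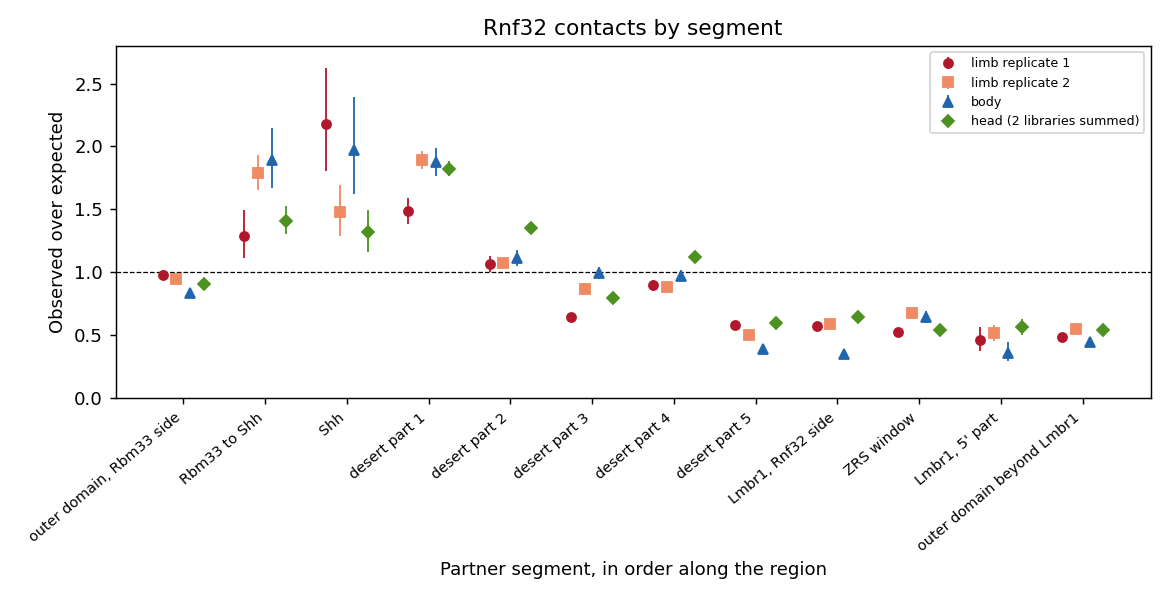
Observed over expected of *Rnf32* with each segment in order along the region, for limb replicates 1 and 2, body and head. Bars are 95% counting intervals and the dashed line marks the average at the same separation. *Shh* and the segments beside it lie above 1 in all 4 samples, and the last desert part, *Lmbr1* and the domain beyond it lie below 1.

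The asymmetry was then measured at matched distance. For 15 bins of separation from 56 to 476 kb, mean interaction frequency per pair on the desert side (390 pairs) was divided by that on the *Lmbr1* side (415 pairs). The ratio was 1.26 and 1.14 for the limb replicates (1.20 ± 0.0829, SD, n = 2), 1.53 for body and 1.30 for head. Desert was higher in 11, 11, 14 and 14 of 15 bins. The difference was larger at longer range. In the 5 bins under 196 kb the ratio was 0.966, 0.815, 1.18 and 1.00, although the desert was higher in all 4 samples in the bin from 140 to 168 kb. In the 10 bins from 196 kb, where all partners on that side lie beyond *Lmbr1*, it was 1.69 and 1.74 for the limb replicates (1.72 ± 0.0340, SD, n = 2), 2.12 for body and 1.76 for head. The desert was higher in 8 of these 10 bins in limb replicate 1 and in 10 of 10 in the other 3 samples. Body lay above the limb replicates by more than their spread and head just above them, with no test between tissues. Over 4 samples the mean ratio in these bins was 1.82 (exact permutation p = 0.125). The ratio over all bins was lost in limb when the median over pairs was taken (0.947).

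**Figure D4:**
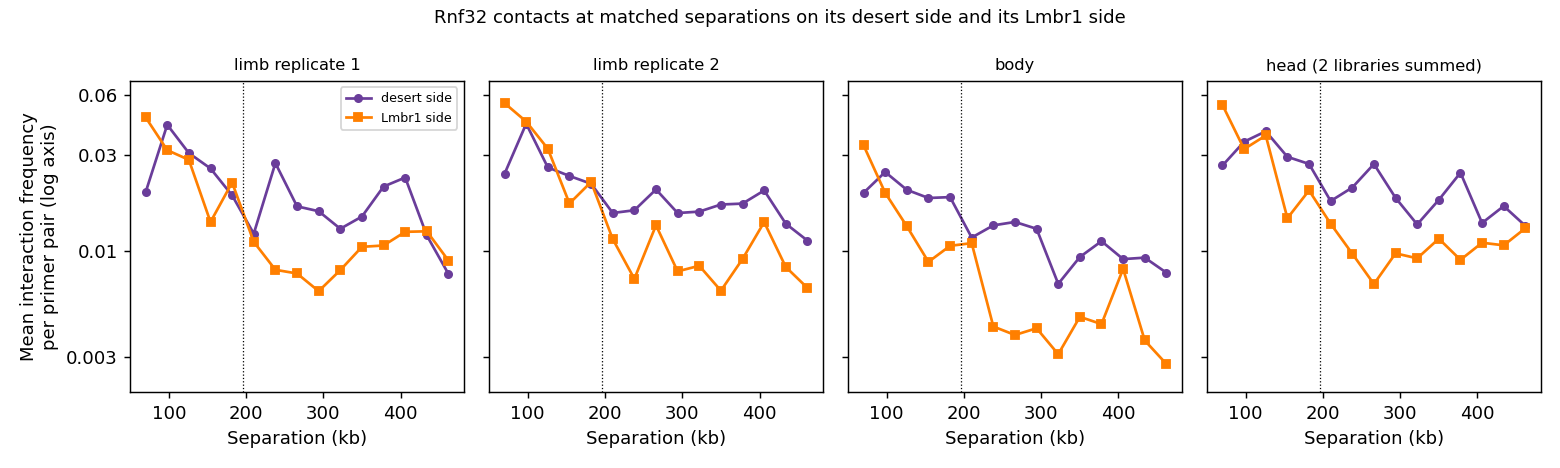
Mean interaction frequency per fragment pair of *Rnf32* (log axis) against separation in 28-kb bins, for partners on the desert side and on the *Lmbr1* side, 1 panel per sample. The dotted line at 196 kb marks where all *Lmbr1*-side partners lie beyond *Lmbr1*. To its right the desert curve is higher in 8 of 10 bins in limb replicate 1 and in 10 of 10 elsewhere.

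Along 28-kb windows at 84 kb or more, 10 of 55 windows were above 1 in all 4 samples. All 10 lay on the desert side, as did 40 of the 55 windows. The longest run was of 6 windows around *Shh*, from 28737087 to 28905086 (134 pairs, values 1.36 to 4.14). Below 1 in all 4 samples were 21 windows, 10 on the desert side and 11 on the *Lmbr1* side. Their longest run was of 9 windows beyond *Lmbr1*, from 29717087 to 29969086 (0.228 to 0.773).

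A single window ranked first of 55 in all 4 samples. It holds 1 forward fragment, 168 (chr5:28870608-28876511, 5904 bases), in the desert 77.0 kb beyond the 5′ end of *Shh* and 660 kb from *Rnf32*. It was chosen after its values were seen. Observed over expected with *Rnf32* was 3.70 and 3.96 for the limb replicates (3.83 ± 0.186, SD, n = 2), 4.14 for body and 3.50 for head, where the libraries gave 4.31 and 2.61. With all partners outside *Rnf32*, at every separation, the fragment stood at 1.14, 1.21, 1.36 and 1.48. These are not partners at the same range. The whole desert part beside *Shh*, which holds fragment 168, stood at 2.15, 2.17, 2.62 and 1.95 with *Lmbr1* on the *Rnf32* side. Whether the contact of fragment 168 is particular to *Rnf32* was not tested. All 5 reverse fragments of *Rnf32* were read with fragment 168 in every sample. For fragments 385, 387, 390, 393 and 395 the first limb replicate had 7, 11, 20, 34 and 32 reads and the second had 59, 41, 19, 74 and 90. Body had 26, 23, 33, 18 and 19, and head had 60, 34, 85, 71 and 70. The order of the 5 fragments changed from sample to sample. In 1 head library 2 of the 5 had no read. The window kept rank 1 with capping. With balanced primer totals it ranked 1 in both limb replicates and head and 2 in body, at 2.83, 3.34, 2.50 and 2.20.

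**Figure D5:**
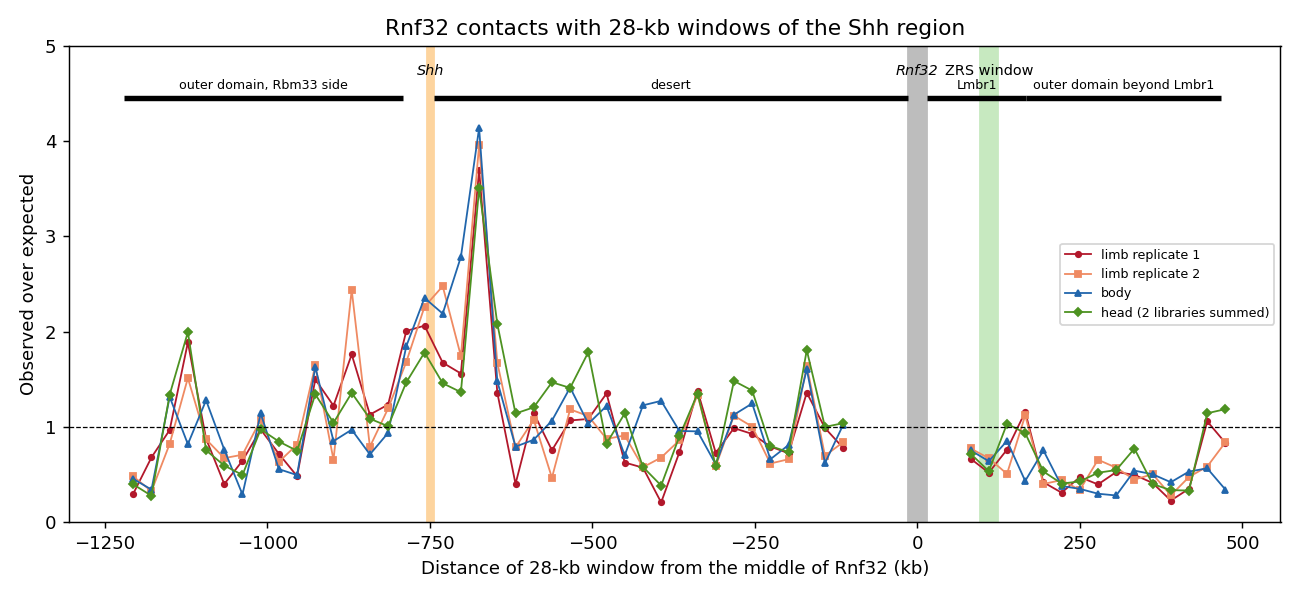
Observed over expected of *Rnf32* with 28-kb windows at 84 kb or more, by distance from the middle of *Rnf32*, in limb replicates 1 and 2, body and head. Shading marks *Shh*, *Rnf32* and the ZRS window, and the dashed line the average at the same separation. The highest point in every sample is the window of fragment 168 (3.50 to 4.14), just inside the desert from *Shh*, and the windows beyond *Lmbr1* lie mostly below 1.

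Read counts of single long-range contacts varied widely between libraries. Among the 1408 pairs at 84 kb or more, Spearman's rank correlation of read counts was 0.427 between the limb replicates and 0.185 between the head libraries, which come from the same sample, and 0.486 and 0.533 between body and the limb replicates (across pairs that share fragments, so given as a description). The limb replicates shared 15 of their 50 most-read pairs and the head libraries 7. Over *Rnf32* pairs at any separation that were read in at least 1 of the 2 libraries, the variance was set against counting noise. It was 11.9 times counting noise between limb replicates (1297 pairs) and 23.7 times between head libraries (1097 pairs).

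The most frequent long-range contacts by interaction frequency in limb were 391 with 463, 386 with 362 in the last desert part, 388 with 258 in the third, 394 with 324 in the fourth and 394 with 463. The first had 132, 145, 16 and 273 reads (limb replicates 1 and 2, body, head), ranking 1, 15, 250 and 3. Fragment 463 (chr5:29713093-29716181, beyond *Lmbr1* and 179 kb from fragment 391) was however read strongly with all partners. It took 20.6 reads per 1000 in each limb replicate, 11.52 in body and 14.8 in head, where the median fragment took 4.75 to 5.32. Outside *Rnf32*, at every separation, its observed over expected was 4.06, 4.05, 2.43 and 2.91. With *Rnf32* it was 3.78, 2.74, 0.724 and 2.45, which falls to 0.654, 0.864, 0.331 and 0.479 with balanced primer totals. Fragment 386 with 362 had 118, 139, 12 and 189 reads. Fragment 388 with 258 had 98, 96, 0 and 117 reads. Per 1000 reads, 386 with 362 was at 0.175 and 0.0811 in limb replicates 1 and 2, and 388 with 258 at 0.145 and 0.0560. Both were higher in the first replicate and lowest in body.

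In body the leading contacts were 394 with 324 (57, 178, 71 and 28 reads), 387 with 441 in the ZRS window (7, 77, 69 and 26), 387 with 361, 394 with 181 in the desert part beside *Shh*, and 387 with 350. In head they were 385 with 224 (0, 91, 4 and 339), 386 with 221 (69, 0, 10 and 304), 391 with 463, 391 with 444 in the ZRS window (8, 92, 0 and 237) and 387 with 355. Of the 5 in head, 2 were unread in a limb replicate while holding 69 and 91 reads in the other. The contact ranked first in body, 394 with 324, was unread in 1 of the head libraries.

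Limb was then compared with body and head together as non-limb tissue, since neither has a replicate of its own. Among 90 segment pairs of the whole region edgeR's quasi-likelihood test called 0 (0%) after Benjamini-Hochberg adjustment at 0.05, and 1 fell under 0.05 before adjustment. Of the 12 pairs that hold *Rnf32*, 0 were called and 0 fell under 0.05 before adjustment, with edgeR and with DESeq2 alike. For *Rnf32* with *Shh* the log2 fold change of limb over non-limb was 0.13 (SE 0.36, 95% interval -0.74 to 1.00, edgeR adjusted p = 0.994), an interval that leaves room for a change of either sign. It turned to -0.15 without limb replicate 1. With the ZRS window it was 0.36 (-0.21 to 0.92, edgeR adjusted p = 0.982), the smallest p of the 12. The desert parts lay between -0.23 and 0.10, and the outer domains at 0.21 and 0.23.

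Leaving out 1 tissue changed these counts. With head left out, limb against body alone gave 37 of 90 segment pairs (41.1%), and 2 of the 12 with *Rnf32*. Both were outer domains, higher in limb: that on the *Rbm33* side by a log2 fold change of 0.59 (edgeR adjusted p = 6.3e-05) and that beyond *Lmbr1* by 0.57 (edgeR adjusted p = 0.00033). This share of 2 in 12 is below that of all segment pairs. The body is 1 library, assumed in this fit to vary like the limb replicates, and its reads were of shorter range than those of limb. With body left out, 4 of 90 were called and 0 with *Rnf32*.

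Single fragment pairs gave 0 calls among 17466 tested (0%), with 627 under 0.05 before adjustment. Of the 1552 *Rnf32* pairs, 947 passed the filter on low counts, of which 31 fell under 0.05 before adjustment and 0 were called. DESeq2, run without this filter, also called 0. Under 0.05 before adjustment were 59 of 1470 *Rnf32* pairs and 993 of all 28511 pairs. The pair ranked first by edgeR was fragment 390 with fragment 245, which was unread in both limb replicates and had 23 reads in body and 126 in head (edgeR adjusted p = 1.00). In simulated counts of the same spread, the test recovered 0 of 66 fragment pairs (14992 tested) shifted by 3 on the log2 scale. Of segment pairs (90 tested) it recovered 4 of 4 at a shift of 3, 3 of 4 at 2 and 0 of 4 at 1. A difference of a single *Rnf32* contact by a log2 shift of up to 3 was thus not detectable when limb was compared with body and head together. Larger shifts were not simulated.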

How the data were processed

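5C libraries of E11.5 limb buds, bodies and heads were sequenced by the authors on an Ion PGM and processed through a Torrent 5C pipeline on Galaxy, with coordinates on mm9 (aligner and versions are not given in the sources used here). The deposited values are raw read counts per pair of HindIII fragments, 1 with a forward primer and 1 with a reverse primer. Groups were taken from the labels. The 2 head libraries were summed. Counts were divided by the total deposited reads of the sample and multiplied by 1000, as in the methods, except that these divide by the total of the sequence run. Fragments overlapping *Rnf32* or *Shh* were assigned to that gene, and others by midpoint.

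Expected values are means over all *Shh* region pairs in the same 28-kb bin. Observed over expected recovered median values of 1.97 for a contact of 2 and 3.80 to 3.87 for a contact of 4 put into simulated tables. These tables held Poisson counting noise alone, which is less than the spread of the data. They check the calculation and do not show how precisely the 9 pairs of *Rnf32* and *Shh* were measured. Segment pairs and fragment pairs were tested with edgeR 4.0.16 (quasi-likelihood, TMM, filterByExpr, Benjamini-Hochberg at 0.05) in R 4.3.3, on all pairs of the region, with limb against body and head. The common biological coefficient of variation was 0.280 for segment pairs and 1.06 for fragment pairs. Both values take in the difference between body and head. For segment pairs the coefficient was 0.143 with body left out and 0.143 with head left out. For fragment pairs it was 1.10 and 1.07. DESeq2 1.42.0 was an alternative. Permutation tests used scipy 1.17.1 in Python 3.11.15, with numpy 2.4.6 and pandas 2.3.3. Annotation and sequence were GENCODE and NCBIM37, the same build as mm9.

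The smallest frequency that 3 reads can show on 1 pair was 0.00444 and 0.00175 for the limb replicates, 0.00284 for body and 0.00152 for head. The members, segments, named contacts (*Rnf32* with every segment, the 5 most frequent contacts at 84 kb or more in each tissue, and the most-read with *Shh* and with the ZRS window) and tests were chosen with earlier results of these data known. The deposited distance column, the primer sequences and the FISH experiments were not used here.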

Additional observations from a re-analysis of the deposited data

Results flagged for a closer look

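The *Usp22* region on chromosome 11, captured in the same libraries, is used in no comparison above. Its 50 pairs with *Rnf32* can hold contacts between chromosomes or chance ligations, which cannot be told apart here. The limb replicates held 8 and 53 of these reads and the body 10. In head library 1 they held 0 reads and in head library 2 they held 109 reads. Counts over 3 reads, the limit that a count of 0 allows, drew attention to them. Per pair this was 0.000237, 0.000618, 0.000189 and 0.00234 reads per 1000 in the libraries with reads. The most-read pair held 34 of the 53 reads in limb replicate 2 and 29 of the 109 in head library 2. No group held the 4 samples needed to test single samples for standing apart.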

How the results depend on the processing

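Observed over expected of *Rnf32* with *Shh* in limb (1.83) became 1.26 with the median over pairs, 0.962 with read pairs only, 2.69 with balanced primer totals and 1.32 without the most-read pair, and 1.48 to 2.18 with either replicate left out. The ratio of desert to *Lmbr1* side in limb (1.20) became 0.947, 1.10 and 1.42 under the first 3 of these, and 1.14 to 1.26 with either replicate left out. Of 392 alternative values of observed over expected, 28 crossed 1, chiefly with the median over pairs or with capping, and of 28 for the ratio of sides, 1 did. The cause was not tested. Members by midpoint were the same 1552 pairs.

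Calls with *Rnf32* stayed at 0 under all alternatives for fragment pairs and for segment pairs, except 2 for segment pairs without head, where 37 of 90 were called. Without the filter 3 of 28511 fragment pairs were called, without head 1 of 18359, and with capping 1 of 90 segment pairs, none with *Rnf32*. Over samples left out, the log2 fold change of *Rnf32* with *Shh* ranged from -0.15 to 0.38. Other ranges that crossed 0 were -0.27 to 0.14 for *Rbm33* to *Shh*, -0.15 to 0.31 for the 5′ part of *Lmbr1*, -0.068 to 0.024 for its *Rnf32* side, -0.32 to 0.010, -0.41 to 0.15 and -0.088 to 0.35 for desert parts 1, 2 and 3 (counted from *Shh*), -0.037 to 0.57 beyond *Lmbr1* and -0.076 to 0.59 on the *Rbm33* side. Library totals in place of TMM moved the median of all segment pairs to 0.21, and turned *Rbm33* to *Shh* to 0.18, the *Rnf32* side of *Lmbr1* to 0.18 and desert parts 1, 2 and 5 to 0.053, 0.0033 and 0.049. With the first head library alone, *Rbm33* to *Shh* was 0.023 and the 5′ part of *Lmbr1* -0.036, and with the second alone desert part 3 was -0.012. No paired analysis was possible because the labels give no replicate numbers shared between groups. Between 22.9% and 35.1% of *Rnf32* pairs were unread per sample, so single contacts are limited more than segments.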
